A study of Mus musculus with 9 samples.

Results

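Toll-like receptors are membrane proteins that bind conserved molecules of microbes, and the transcripts of 10 of them (Tlr1 to Tlr9 and Tlr13) were followed here in cultured mouse macrophages. The members were the genes carrying these symbols in an expression table of 18049 genes, and all 10 were listed. RNA was sequenced from bone marrow-derived macrophages, which are grown in culture from marrow cells, of C57BL/6 mice aged 8 weeks. The macrophages were held in RPMI medium and exposed for 6 h to 1 µM 15d-PGJ2-PC, to 1 µM 15d-PGJ2 or to medium alone (control), with 3 libraries per group and 9 in all. The free compound, 15d-PGJ2, is 15-deoxy-Δ12,14-prostaglandin J2, a cyclopentenone prostaglandin with an electrophilic ring. The labels do not spell out PC, and no structure is given for that compound. They call the libraries replicates without naming separate cultures or animals, so p-values here reflect the spread among libraries of a group, which may be only technical.

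Toll-like receptors fall into classes by place and ligand. Tlr1, Tlr2, Tlr4, Tlr5 and Tlr6 act at the cell surface on lipopeptides, lipopolysaccharide or flagellin, whereas Tlr3, Tlr7, Tlr8, Tlr9 and Tlr13 sit in endosomes and are known for sensing nucleic acids. Endosomal receptors leave the endoplasmic reticulum with the chaperone Unc93b1 and are cleaved by lysosomal proteases. Bound receptors signal through the adaptors Myd88 or Ticam1 (TRIF) to NF-κB and to interferon regulatory factors, and macrophages use them to sense infection.

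Levels are given as FPKM, fragments per kilobase of transcript, scaled to sequencing depth. Differences were computed on log2(FPKM + 1), a scale that understates changes of genes with low values. They were tested across all genes with limma's moderated test and called at an adjusted p under 0.05. A gene was tested where it reached 1 FPKM in at least 3 of the 9 libraries, as 11309 genes did. Of the 10 receptors, 9 passed this filter, with at least 1.25 FPKM in every library, and Tlr5 did not. Both compounds were compared with the same control libraries, so their differences from control are not independent of each other.

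Each library held about 5.41 to 5.52 M reads by the step between low FPKM values, and 10876 to 11026 genes at 1 FPKM or more. Macrophage markers such as Adgre1 and Csf1r were abundant in every library. The 10 markers summed to 7397 to 7600 FPKM with 15d-PGJ2-PC, 6202 to 6631 FPKM with 15d-PGJ2 and 8378 to 8711 FPKM in control. Control libraries also held more transcripts of other tissues. Stromal markers (6 of 6 listed) summed to 6.73 to 7.43 FPKM with 15d-PGJ2-PC, 7.0 to 8.84 FPKM with 15d-PGJ2 and 32.2 to 34.9 FPKM in control. Erythroid markers summed to at most 0.91, 0.76 and 31.8 FPKM in the same order of groups, and skin markers (4 of 5 listed) to at most 1.37, 1.03 and 20.5 FPKM. The loricrin gene Lor, a defining skin transcript, was at 0 in all 6 compound-treated libraries and averaged 7.91 FPKM in control. In such bulk samples, fewer cells of a type and less RNA per cell cannot be told apart.

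Most receptors were lower with either compound than in control, and the larger falls belonged to endosomal receptors with the free compound. In 15d-PGJ2 against control, 8 of the 9 tested receptors fell, where 25.0% of all tested genes fell and 22.2% rose. Their median log2 difference was -0.73, beside -0.02 over all tested genes. In 15d-PGJ2-PC against control, 6 of 9 fell, with a median of -0.39 beside -0.00 over all tested genes, of which 14.1% fell and 13.8% rose. Between the compounds, 7 of 9 receptors were higher with 15d-PGJ2-PC than with 15d-PGJ2, with a median of 0.34 beside 0.02, where 12.3% of all tested genes were higher and 8.30% lower.

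**Figure D1:**
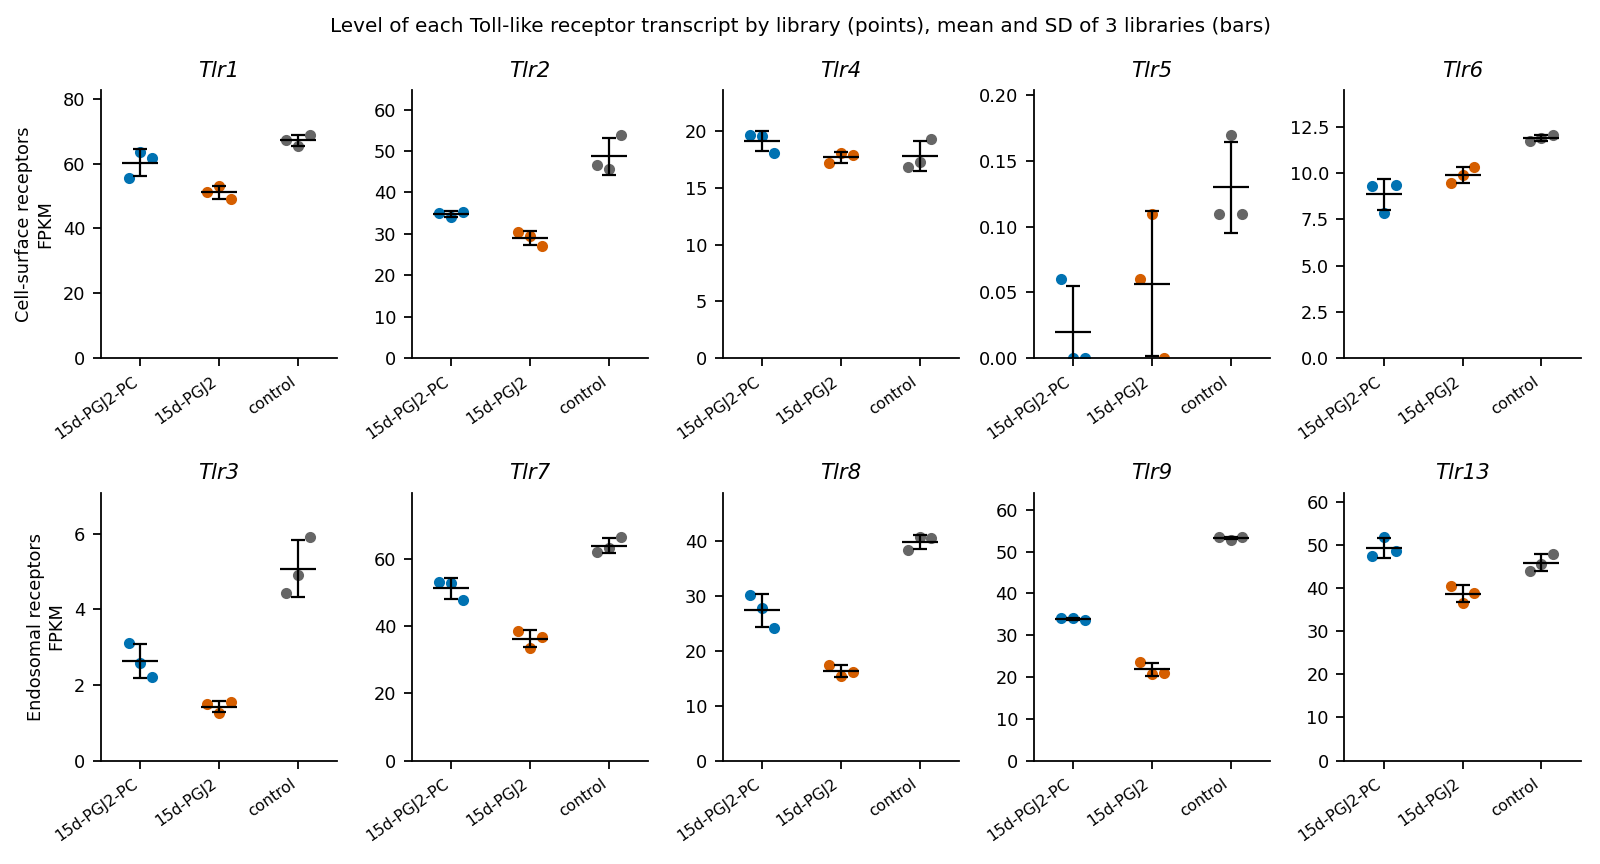
FPKM of each of the 10 receptors, 1 panel each, in single libraries (points), with bars for the mean and SD of 3 libraries of 15d-PGJ2-PC, 15d-PGJ2 and control (linear axes from 0 that differ between panels). Tlr9 lies at 33.6 to 34.2, 20.8 to 23.6 and 52.9 to 53.5 FPKM in these groups without overlap, whereas the Tlr4 points of 15d-PGJ2 and control overlap.

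Tlr9, the receptor of DNA with unmethylated CpG motifs, gave the most even values among replicates of 15d-PGJ2-PC and control. The gene lies on chromosome 9 at 106222598 to 106226876 (plus strand; gene positions are RefSeq's on GRCm38.p6, the assembly that mm10 names). It had 34.03, 34.18 and 33.62 FPKM with 15d-PGJ2-PC, 23.57, 20.81 and 21.05 FPKM with 15d-PGJ2, and 53.40, 52.91 and 53.47 FPKM in control. The 3 groups did not overlap, and 15d-PGJ2 was the lowest of them. Its mean was 33.9 ± 0.290 FPKM with 15d-PGJ2-PC, 21.8 ± 1.53 FPKM with 15d-PGJ2 and 53.3 ± 0.305 FPKM in control (SD, n = 3 each). Thus Tlr9 stood at 63.7% of control with 15d-PGJ2-PC and 41.0% with 15d-PGJ2. On the log2 scale it fell by 0.63 (95% interval -0.75 to -0.52, adjusted p = 8.35e-06) and by 1.25 (-1.37 to -1.14, adjusted p = 1.70e-08). The difference between the compounds was 0.62 (0.50 to 0.73, adjusted p = 2.13e-05).

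Tlr8, an endosomal receptor whose human counterpart senses products of single-stranded RNA, moved by amounts close to those of Tlr9. Its values were 30.18, 27.81 and 24.08 FPKM with 15d-PGJ2-PC, 17.41, 15.32 and 16.08 FPKM with 15d-PGJ2, and 38.37, 40.71 and 40.57 FPKM in control. Here too the 3 groups were separate, with the widest spread in the 15d-PGJ2-PC libraries (27.4 ± 3.08 FPKM, SD, n = 3). Tlr8 fell by 0.53 with 15d-PGJ2-PC (95% interval -0.71 to -0.36, adjusted p = 0.000526) and by 1.24 with 15d-PGJ2 (-1.42 to -1.07, adjusted p = 3.57e-07). It was 1.68-fold higher with 15d-PGJ2-PC than with 15d-PGJ2 (log2 difference 0.71, interval 0.54 to 0.89, adjusted p = 0.000121).

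Tlr3, which senses double-stranded RNA and signals through Ticam1, was the lowest of the tested receptors in level. It lies on chromosome 8 at 45395665 to 45411075 (minus strand). It had 3.10, 2.57 and 2.20 FPKM with 15d-PGJ2-PC, 1.49, 1.25 and 1.54 FPKM with 15d-PGJ2, and 4.42, 4.90 and 5.91 FPKM in control. No 2 groups overlapped, although replicates varied more than for any other tested receptor, with a coefficient of variation of 17.2% in 15d-PGJ2-PC libraries. About 53 to 75 reads per library stood behind its values with 15d-PGJ2-PC, 30 to 37 with 15d-PGJ2 and 108 to 142 in control, where Tlr7 had 1014 to 1131, 709 to 822 and 1337 to 1413. Tlr3 was at 51.7% of control with 15d-PGJ2-PC (log2 difference -0.75, SE 0.13, adjusted p = 0.00162) and at 28.1% with 15d-PGJ2 (-1.32, SE 0.13, adjusted p = 1.21e-05). Between the compounds the difference was 0.57 (95% interval 0.28 to 0.86, adjusted p = 0.0107).

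Promoter windows of Tlr3, Tlr8 and Tlr9 are shown because these receptors fell most with 15d-PGJ2, a choice made after their values were seen. The windows run from 250 bases before to 50 bases after a transcript's start and come from RefSeq on GRCm38.p6. They lie at chr8:45410331-45410630 (minus strand), chrX:167264280-167264579 (minus strand) and chr9:106222348-106222647 (plus strand) for Tlr3, Tlr8 and Tlr9. The Tlr3 window lies wholly inside the gene span given above, which begins on this strand at 45411075. Its start is therefore not the outermost start of the gene, unlike those of Tlr8 and Tlr9. Each is written 5′ to 3′ on the gene's strand. Capitals mark matches, on either strand, to the motifs described after the sequences.
Tlr3: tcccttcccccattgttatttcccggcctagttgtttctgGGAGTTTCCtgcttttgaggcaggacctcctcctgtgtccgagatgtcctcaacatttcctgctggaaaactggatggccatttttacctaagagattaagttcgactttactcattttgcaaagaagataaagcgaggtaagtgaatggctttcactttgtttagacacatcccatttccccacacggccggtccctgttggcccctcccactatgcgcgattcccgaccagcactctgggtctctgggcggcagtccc
Tlr8: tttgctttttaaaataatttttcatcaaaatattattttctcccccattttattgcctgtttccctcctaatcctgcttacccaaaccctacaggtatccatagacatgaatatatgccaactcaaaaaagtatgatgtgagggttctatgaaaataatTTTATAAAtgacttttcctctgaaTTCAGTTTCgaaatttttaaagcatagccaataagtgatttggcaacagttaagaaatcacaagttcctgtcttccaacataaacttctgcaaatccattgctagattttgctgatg
Tlr9: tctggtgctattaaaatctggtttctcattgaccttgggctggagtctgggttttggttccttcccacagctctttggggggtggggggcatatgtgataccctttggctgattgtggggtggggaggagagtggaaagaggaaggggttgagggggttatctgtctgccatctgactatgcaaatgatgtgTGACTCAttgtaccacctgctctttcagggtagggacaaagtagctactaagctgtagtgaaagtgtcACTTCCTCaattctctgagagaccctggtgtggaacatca

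Motifs were searched on both strands of each window, namely GGNNTTTCC (an NF-κB core), GAAANNGAA (the core of the interferon-stimulated response element), TGANTCA (AP-1), GAGGAAGT (a PU.1 type ETS site) and TATAAA. The Tlr3 window held 1 match, GGAGTTTCC at position -210 from the start. This NF-κB core was held by 5.82% of the 32851 RefSeq promoter windows searched. In the Tlr8 window, the response element core lay on the reverse strand at -67 (8.56% of windows hold it), and TATAAA matched at -89 and, on the reverse strand and overlapping it, at -91 (13.6% of windows). The Tlr9 window held TGACTCA at -58 (7.81% of windows) and ACTTCCTC, the reverse complement of the PU.1 type site, at position 11 (3.2% of windows). The 3 windows shared none of these motifs. They also differed in composition, with a GC content of 51.0% and 10 CpG dinucleotides for Tlr3, 32.3% and 1 for Tlr8, and 49.7% and 0 for Tlr9. RefSeq windows matched 8 of the 10 receptors (10 windows, of which 7 held at least 1 motif), leaving Tlr4 and Tlr7 without one. Tlr2 and Tlr13 held no match. A match is a run of letters and was not tested as a binding site.

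Tlr7, a sensor of single-stranded RNA and the X-chromosome neighbour of Tlr8, was among the most abundant receptors. It had 53.04, 53.02 and 47.76 FPKM with 15d-PGJ2-PC, 38.55, 33.65 and 36.72 FPKM with 15d-PGJ2, and 62.15, 63.22 and 66.52 FPKM in control. The 3 groups were again separate. Its level was 80.2% of control with 15d-PGJ2-PC (log2 difference -0.31, 95% interval -0.45 to -0.18, adjusted p = 0.00294) and 56.8% with 15d-PGJ2 (-0.80, -0.94 to -0.67, adjusted p = 1.41e-06). With 15d-PGJ2-PC it was 1.41-fold higher than with 15d-PGJ2 (0.49, 0.35 to 0.62, adjusted p = 0.000254). Tlr7 and Tlr8 lie 39050 bases apart on chromosome X (mm10), at 167303380 to 167330574 and 167241123 to 167264329 on the minus strand. The ratio of Tlr8 to Tlr7 within a library was 0.569, 0.525 and 0.504 with 15d-PGJ2-PC, 0.452, 0.455 and 0.438 with 15d-PGJ2, and 0.617, 0.644 and 0.610 in control. These ratios did not overlap between groups, and each of the 3 exact two-sided permutation tests gave p = 0.1 (0.12 adjusted over the 12 ratio comparisons made), the smallest that 3 against 3 libraries allow.

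Tlr13, which in mice detects bacterial ribosomal RNA, was the endosomal receptor that did not pass the test between 15d-PGJ2-PC and control. It lies on chromosome X at 106143275 to 106160493 (plus strand), away from Tlr7 and Tlr8. It had 47.51, 51.92 and 48.74 FPKM with 15d-PGJ2-PC, 40.67, 36.71 and 39.05 FPKM with 15d-PGJ2, and 44.13, 45.64 and 48.09 FPKM in control. The 15d-PGJ2 libraries lay below all others, whereas 15d-PGJ2-PC and control libraries overlapped. Against control, Tlr13 fell by 0.24 with 15d-PGJ2 (95% interval -0.36 to -0.12, adjusted p = 0.00443) and differed by 0.10 with 15d-PGJ2-PC (-0.02 to 0.22, adjusted p = 0.204). Between the compounds it was 1.27-fold higher with 15d-PGJ2-PC (0.34, 0.22 to 0.46, adjusted p = 0.00137).

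At the cell surface, Tlr2 fell with both compounds. Tlr2, on chromosome 3 at 83836272 to 83841824 (minus strand), binds bacterial lipopeptides as a partner of Tlr1 or Tlr6. It had 35.14, 34.04 and 35.16 FPKM with 15d-PGJ2-PC, 30.47, 29.55 and 27.12 FPKM with 15d-PGJ2, and 46.70, 45.72 and 53.90 FPKM in control. None of the 3 groups overlapped, and replicate 3 stood above the other control libraries. Tlr2 fell by 0.47 with 15d-PGJ2-PC (95% interval -0.62 to -0.32, adjusted p = 0.000384) and by 0.73 with 15d-PGJ2 (-0.875 to -0.58, adjusted p = 6.63e-06). The difference between the compounds was smaller, 0.25 (0.10 to 0.40, adjusted p = 0.0221). It did not pass after quantile normalization (adjusted p = 0.0576) or without 15d-PGJ2 replicate 3 (0.0830), 15d-PGJ2-PC replicate 1 (0.0639) or 15d-PGJ2-PC replicate 3 (0.0620), with a range of 0.00697 to 0.0830 over all alternatives.

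Tlr1 and Tlr6, the partners of Tlr2 for triacylated and diacylated lipopeptides, are close relatives that lie 19491 bases apart on the minus strand of chromosome 5, at 64924680 to 64933600 and 64953092 to 64970942. Their transcripts share 454 distinct runs of 50 bases, counted from every start position, so that neighbouring runs overlap. These are 14.8% of the runs of Tlr1 and 12.3% of those of Tlr6, while the other 44 pairs of receptors share none. Reads lying wholly within shared bases would fit both genes. Read length and the way such reads were counted are not given, so the separate values of Tlr1 and Tlr6 are uncertain.

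Tlr1 was the most abundant receptor by group mean, with 55.69, 63.53 and 61.67 FPKM with 15d-PGJ2-PC, 51.12, 53.13 and 49.19 FPKM with 15d-PGJ2, and 67.25, 65.46 and 68.89 FPKM in control. The groups were separate, with 15d-PGJ2 lowest. It fell by 0.39 with 15d-PGJ2 (95% interval -0.51 to -0.27, adjusted p = 0.000157). With 15d-PGJ2-PC the difference from control was -0.16 (-0.28 to -0.04) and missed the threshold (adjusted p = 0.0549), although it passed without 15d-PGJ2-PC replicate 2 (-0.19, adjusted p = 0.0366) and with a filter of 5 FPKM (adjusted p = 0.0454). Over all alternatives its adjusted p ran from 0.0366 to 0.185. Tlr1 was 1.18-fold higher with 15d-PGJ2-PC than with 15d-PGJ2 (0.23, 0.11 to 0.35, adjusted p = 0.0116).

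Tlr6 had the reverse order of compounds. Its values were 9.31, 7.86 and 9.34 FPKM with 15d-PGJ2-PC, 9.45, 9.91 and 10.32 FPKM with 15d-PGJ2, and 11.70, 11.88 and 12.06 FPKM in control. All 3 libraries of 15d-PGJ2-PC lay below those of 15d-PGJ2, though barely (9.34 beside 9.45 FPKM), and both groups lay below control. Tlr6 fell by 0.39 with 15d-PGJ2-PC (95% interval -0.56 to -0.22, adjusted p = 0.00294). With 15d-PGJ2 it fell by 0.24 (-0.41 to -0.07, adjusted p = 0.0227), a call that was lost with upper-quartile scaling (adjusted p = 0.0501). It was also lost without 15d-PGJ2 replicate 1 (0.0720) or 2 (0.0523) and without control replicate 2 (0.0558) or 3 (0.0595), and the adjusted p ran from 0.0113 to 0.0720 over all alternatives. The difference between the compounds was -0.15 (-0.32 to 0.02, adjusted p = 0.200).

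Tlr4, the receptor of lipopolysaccharide, lies on chromosome 4 at 66827551 to 66846581 (plus strand). It had 19.69, 19.58 and 18.10 FPKM with 15d-PGJ2-PC, 17.18, 18.07 and 17.92 FPKM with 15d-PGJ2, and 16.89, 17.26 and 19.31 FPKM in control. Control libraries overlapped those of both compounds, whereas 15d-PGJ2-PC lay just above 15d-PGJ2. No comparison passed the test. The log2 difference from control was 0.10 with 15d-PGJ2-PC (95% interval -0.04 to 0.24, adjusted p = 0.301) and -0.01 with 15d-PGJ2 (-0.15 to 0.14, adjusted p = 0.953), and that between the compounds was 0.10 (-0.04 to 0.25, adjusted p = 0.30).

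Tlr5, the flagellin receptor, on chromosome 1 at 182954752 to 182976044 (plus strand), was near or at 0. It was listed at 0.06, 0 and 0 FPKM with 15d-PGJ2-PC, at 0.06, 0.11 and 0 FPKM with 15d-PGJ2, and at 0.11, 0.17 and 0.11 FPKM in control, which are 0 to 3 reads per library. No fold is given at that level. Exact two-sided permutation tests of the FPKM gave p = 0.1 between 15d-PGJ2-PC and control, 0.3 between 15d-PGJ2 and control and 0.7 between the compounds, where 0.1 is the smallest possible.

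**Figure D2:**
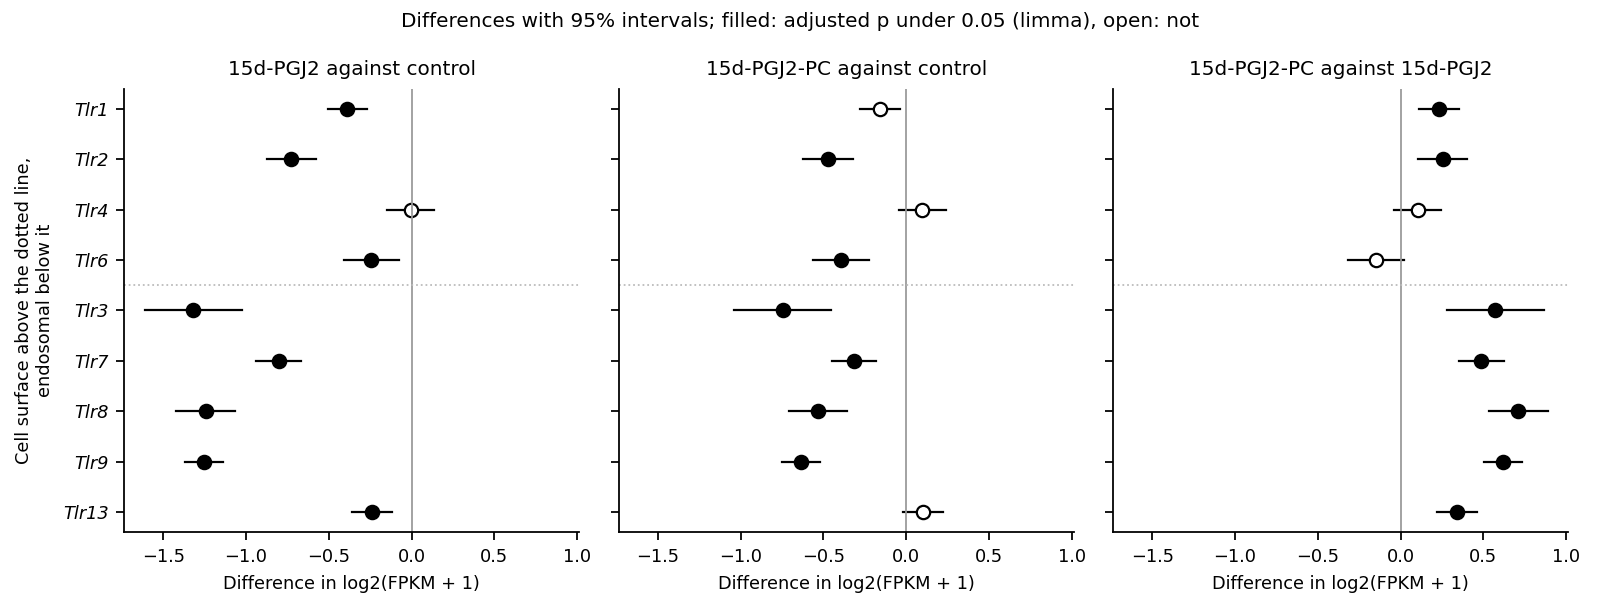
Differences in log2(FPKM + 1) of the 9 tested receptors (points, filled where the adjusted p was under 0.05) with 95% intervals (lines), in 1 panel per comparison of the groups. With 15d-PGJ2 the values run from -1.32 for Tlr3 to -0.01 for Tlr4, and with 15d-PGJ2-PC from -0.75 for Tlr3 to 0.10 for Tlr13.

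By class, a few more endosomal than surface receptors were called lower, but the classes overlapped in the size of their differences. Of the 5 endosomal receptors, 4 fell with 15d-PGJ2-PC (median log2 difference -0.53) and 5 fell with 15d-PGJ2 (-1.24), and all 5 were higher with 15d-PGJ2-PC than with 15d-PGJ2 (0.57). Of the 4 tested surface receptors, 2 fell with 15d-PGJ2-PC (-0.27) and 3 fell with 15d-PGJ2 (-0.31), and 2 were higher with 15d-PGJ2-PC than with 15d-PGJ2 (0.17). Over all tested genes, 14.1% fell with 15d-PGJ2-PC, 25.0% fell with 15d-PGJ2 and 12.3% were higher with 15d-PGJ2-PC than with 15d-PGJ2. The endosomal Tlr13 differed from control by 0.10 with 15d-PGJ2-PC and -0.24 with 15d-PGJ2. For the surface receptor Tlr2 these differences were -0.47 and -0.73. Whether the classes differ from each other was not tested. Of the 9 tested receptors, 8 had all 3 libraries of 15d-PGJ2 below all 3 of control, an arrangement held by 28.8% of all tested genes. All 3 libraries of 15d-PGJ2-PC lay below control for 7 of the 9, against 21.3% of all tested genes, and so did those of the untested Tlr5. All 3 libraries of 15d-PGJ2-PC lay above those of 15d-PGJ2 for 8 of the 9, against 20.5% of all tested genes.

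Summed over the family, levels were ordered in the same way. The 10 receptors together had 281 to 295 FPKM with 15d-PGJ2-PC, 219 to 230 FPKM with 15d-PGJ2 and 345 to 369 FPKM in control. Endosomal receptors summed to 165 ± 7.14 FPKM with 15d-PGJ2-PC, 115 ± 6.98 FPKM with 15d-PGJ2 and 208 ± 6.08 FPKM in control, and surface receptors to 123 ± 2.77, 108 ± 3.13 and 146 ± 7.41 FPKM in the same groups (SD, n = 3 each). The endosomal share of the summed FPKM was 57.2% ± 1.34 with 15d-PGJ2-PC, 51.5% ± 1.92 with 15d-PGJ2 and 58.8% ± 0.732 in control. The 15d-PGJ2 libraries had the lowest shares and did not overlap the others.

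**Figure D3:**
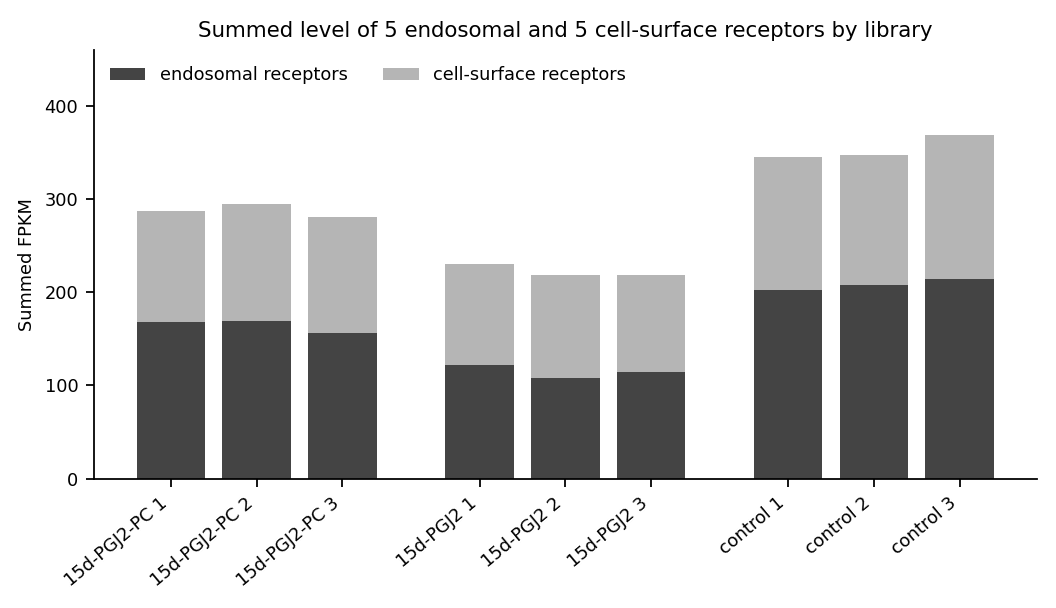
Summed FPKM of the 5 endosomal (dark) and the 5 surface receptors (light), stacked from 0 in 1 bar per library of 15d-PGJ2-PC, 15d-PGJ2 and control. Endosomal sums lie at 156 to 170 FPKM with 15d-PGJ2-PC, 108 to 122 FPKM with 15d-PGJ2 and 202 to 215 FPKM in control.

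The order of levels among the receptors also changed with the group. With 15d-PGJ2-PC, Tlr1 was highest, followed by Tlr7 and Tlr13, then Tlr2 and Tlr9, then Tlr8, Tlr4, Tlr6, Tlr3 and Tlr5. With 15d-PGJ2 the order ran Tlr1, Tlr13, Tlr7, Tlr2, Tlr9, Tlr4, Tlr8, Tlr6, Tlr3 and Tlr5. In control it ran Tlr1, Tlr7, Tlr9, Tlr2, Tlr13, Tlr8, Tlr4, Tlr6, Tlr3 and Tlr5. Neighbours whose libraries overlapped were Tlr7 with Tlr13 and Tlr2 with Tlr9 for 15d-PGJ2-PC, Tlr13 with Tlr7 and Tlr4 with Tlr8 for 15d-PGJ2, and Tlr1 with Tlr7 and Tlr9, Tlr2 and Tlr13 in sequence for control. Tlr9 thus stood above Tlr2 and Tlr13 by mean in control and below both with 15d-PGJ2.

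Partners of Tlr2 kept unequal pace with it. The ratio of Tlr1 to Tlr2 was 1.58, 1.87 and 1.75 with 15d-PGJ2-PC, 1.68, 1.80 and 1.81 with 15d-PGJ2, and 1.44, 1.43 and 1.28 in control, so both compounds lay above control. The ratio of Tlr6 to Tlr2 was 0.265, 0.231 and 0.266 with 15d-PGJ2-PC, 0.310, 0.335 and 0.381 with 15d-PGJ2, and 0.251, 0.260 and 0.224 in control, where 15d-PGJ2 lay above both other groups. Exact two-sided permutation tests gave p = 0.1, the smallest possible, wherever groups were separate, and 0.8 for Tlr1 to Tlr2 between the compounds and 0.5 for Tlr6 to Tlr2 of 15d-PGJ2-PC against control. Pairs were chosen after the values were seen, and the shared bases of Tlr1 and Tlr6 may touch these ratios.

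Genes outside the family that resembled each receptor were ranked by the root mean square of the log2 difference from the receptor over the 9 libraries, each gene taken relative to its own control mean, among 7968 genes with a mean of at least 5 FPKM. For Tlr9 the closest were Vsir (0.0473), B3galnt1 (0.0650) and Maf (0.0708). Tlr8 was followed most closely by Dab2 (0.0818), Tlr3 by Papd7 (0.0816) and Tlr7 by Calm2 (0.0481). Tlr1 was nearest to Slc31a1 (0.0331), Tlr2 to Cfb (0.0411), Tlr4 to Pde4dip (0.0442), Tlr6 to Ulk2 (0.0671) and Tlr13 to Rasa4 (0.0531). Within the family, Tlr8 and Tlr9 were nearest to each other (0.0959), while the nearest receptor to Tlr6 was Tlr1 (0.193). These are descriptions over libraries that share their groups.

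Among genes that fold, carry and cleave the receptors, most fell with 15d-PGJ2 and fewer with 15d-PGJ2-PC. Of 12, all tested, 4 fell and 1 rose with 15d-PGJ2-PC (median -0.10), 9 fell and 1 rose with 15d-PGJ2 (-0.29), and 8 were higher and 1 lower with 15d-PGJ2-PC than with 15d-PGJ2 (0.17). The 8 higher ones became 5 without 15d-PGJ2 replicate 3 and also without the mean trend, and the 1 that rose with 15d-PGJ2 became 2 without that library. Over all tested genes, 14.1% fell and 13.8% rose with 15d-PGJ2-PC, and 25.0% fell and 22.2% rose with 15d-PGJ2. Between the compounds, 12.3% were higher and 8.30% lower with 15d-PGJ2-PC than with 15d-PGJ2. Unc93b1, the chaperone of endosomal receptors, averaged 682 FPKM with 15d-PGJ2-PC (adjusted p = 0.00124), 602 FPKM with 15d-PGJ2 (adjusted p = 2.36e-06) and 765 FPKM in control. The protease Lgmn, which cleaves endosomal receptors, averaged 668, 526 and 791 FPKM in these groups, and fell by 0.24 with 15d-PGJ2-PC and 0.59 with 15d-PGJ2 (adjusted p = 0.000132 and 6.43e-08). Lrrc59, which helps endosomal receptors leave the endoplasmic reticulum, rose to 90.5 FPKM with 15d-PGJ2-PC and 108 FPKM with 15d-PGJ2, against 72.1 FPKM in control (adjusted p = 0.000549 and 3.03e-06).

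Of 11 co-receptors and genes that handle ligands, all tested, 5 fell and 1 rose with 15d-PGJ2-PC (median -0.12), 6 fell and 1 rose with 15d-PGJ2 (-0.23), and 5 were higher with 15d-PGJ2-PC than with 15d-PGJ2 (0.22). Over all tested genes, 14.1% fell with 15d-PGJ2-PC, 25.0% fell with 15d-PGJ2 and 12.3% were higher between the compounds, while 13.8% and 22.2% rose. The 1 listed gene that rose was Cd36, by 0.30 with 15d-PGJ2-PC and 0.38 with 15d-PGJ2 (adjusted p = 0.000191 and 1.32e-05). The list also holds Ticam2, an adaptor of Tlr4, which fell by 0.33 with 15d-PGJ2-PC and 0.65 with 15d-PGJ2 and is not among the adaptors below. Cd180, an orphan relative of Tlr4 that limits its signalling, averaged 80.5 FPKM with 15d-PGJ2-PC, 53.1 FPKM with 15d-PGJ2 and 116 FPKM in control (adjusted p = 7.14e-05 and 7.17e-08 against control). Cd14, which hands lipopolysaccharide to Tlr4, averaged 160 FPKM with 15d-PGJ2-PC, 138 FPKM with 15d-PGJ2 and 190.3 FPKM in control (adjusted p = 0.00144 and 6.05e-06). Ly96 (MD-2), the partner that binds lipopolysaccharide on Tlr4, averaged 32.9, 28.4 and 29.4 FPKM in these groups and passed in no comparison, the smallest adjusted p being 0.205. Pld4, an endosomal nuclease that degrades nucleic acid ligands, averaged 254 FPKM with 15d-PGJ2-PC, 180 FPKM with 15d-PGJ2 and 293 FPKM in control. It fell by 0.21 with 15d-PGJ2-PC and by 0.70 with 15d-PGJ2 (adjusted p = 0.00286 and 1.34e-07).

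Adaptors and kinases did not share 1 direction. Of 17, all tested, 4 fell and 6 rose with 15d-PGJ2-PC (median 0.07), 6 fell and 6 rose with 15d-PGJ2 (0.11), and 3 were higher with 15d-PGJ2-PC than with 15d-PGJ2 (0.10). Over all tested genes, 14.1% fell and 13.8% rose with 15d-PGJ2-PC, and 25.0% fell and 22.2% rose with 15d-PGJ2. Between the compounds, 12.3% of all tested genes were higher with 15d-PGJ2-PC, and the 3 of 17 lie not far above that share. With quantile or upper-quartile scaling, 3 were lower with 15d-PGJ2-PC than with 15d-PGJ2. In the main fit, 8.30% of all tested genes were lower, and the share under those scalings is not given here. Tab2, 1 of the 3 higher, lost its call with either scaling, without the mean trend and without some single libraries (adjusted p up to 0.0946). Myd88, the adaptor of all these receptors but Tlr3, averaged 83.8 FPKM with 15d-PGJ2-PC, 69.4 FPKM with 15d-PGJ2 and 116 FPKM in control (adjusted p = 1.01e-05 and 8.75e-08). Ticam1, the adaptor of Tlr3 and an adaptor of Tlr4, averaged 31.1 FPKM with 15d-PGJ2-PC, 28.9 FPKM with 15d-PGJ2 and 25.0 FPKM in control. It rose by 0.30 with 15d-PGJ2-PC (adjusted p = 0.0106). With 15d-PGJ2 it rose by 0.20 (adjusted p = 0.0415), a call lost in 9 of the alternatives, among them leaving out any 1 library of 15d-PGJ2 or control (adjusted p up to 0.110). Ikbkg, the regulatory subunit of the IκB kinase, rose to 20.3 FPKM with 15d-PGJ2-PC and 23.3 FPKM with 15d-PGJ2, against 13.0 FPKM in control (adjusted p = 6.82e-05 and 3e-06).

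Of 7 downstream transcription factors, 4 fell with each compound (medians -0.17 with 15d-PGJ2-PC and -0.28 with 15d-PGJ2), and 2 were higher with 15d-PGJ2-PC than with 15d-PGJ2 (0.11). Over all tested genes, 14.1% fell with 15d-PGJ2-PC, 25.0% fell with 15d-PGJ2 and 12.3% were higher with 15d-PGJ2-PC than with 15d-PGJ2, shares that also serve for the inhibitors. Among the factors that fell, Nfkb1 lost its call after quantile normalization with 15d-PGJ2-PC (adjusted p = 0.0681) and 15d-PGJ2 (adjusted p = 0.0522). With 15d-PGJ2-PC it was also lost without the mean trend and without some single libraries (adjusted p up to 0.0913). Irf5, a factor that acts after Tlr7, Tlr8 and Tlr9, averaged 149 FPKM with 15d-PGJ2-PC, 108 FPKM with 15d-PGJ2 and 175 FPKM in control (adjusted p = 0.00156 and 2.02e-07). Irf7, which drives type I interferon genes, averaged 278, 257 and 344 FPKM in these groups (adjusted p = 8.01e-05 and 3.06e-06 against control). Of 10 inhibitors of the pathway, 9 were tested, of which 5 fell with 15d-PGJ2-PC (median -0.17) and 6 fell with 15d-PGJ2 (-0.31), and 4 were higher with 15d-PGJ2-PC than with 15d-PGJ2 (0.14). Socs1, a feedback inhibitor of cytokine and receptor signalling, averaged 5.54 FPKM with 15d-PGJ2-PC, 3.38 FPKM with 15d-PGJ2 and 11.7 FPKM in control (adjusted p = 9.76e-05 and 1.01e-06). Irak3, a kinase relative that restrains the receptor complex, averaged 56.2, 47.8 and 78.2 FPKM in these groups (adjusted p = 1.06e-05 and 1.48e-07).

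**Figure D4:**
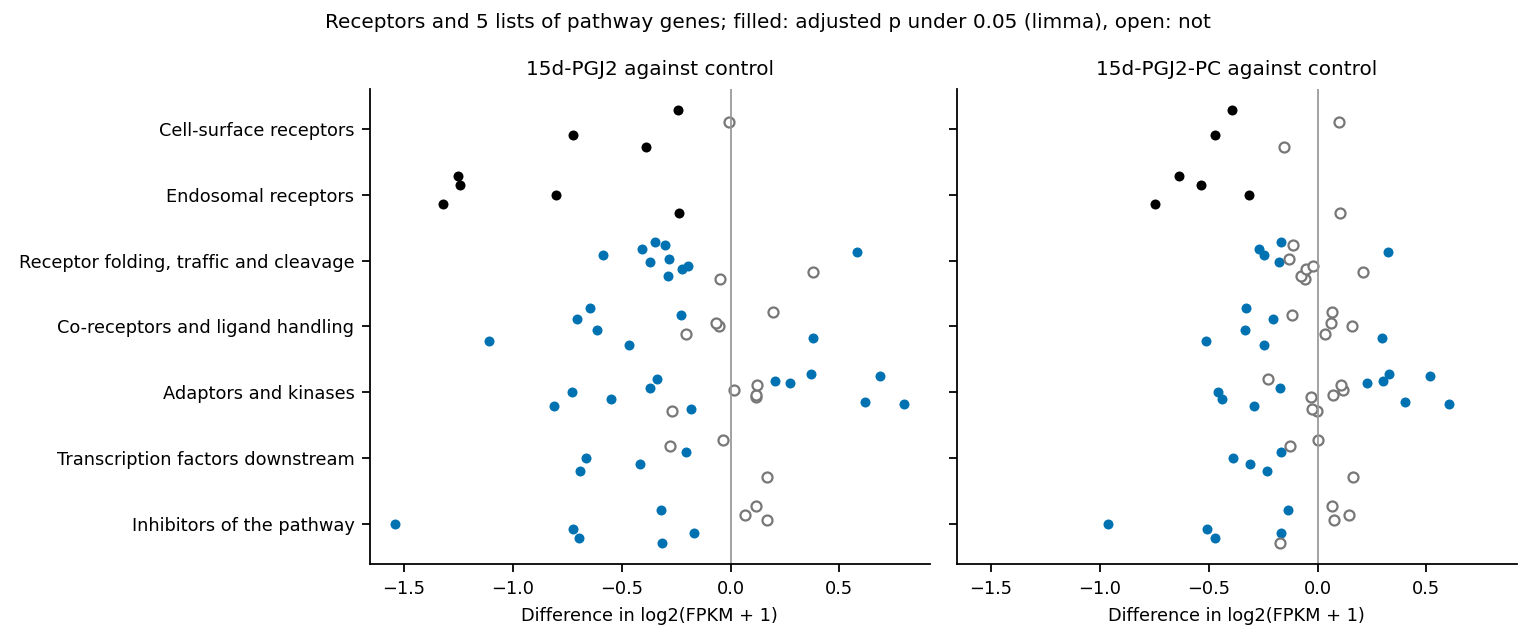
Differences from control in log2(FPKM + 1) of single genes (points, filled where the adjusted p was under 0.05) in the receptor classes and 5 lists of pathway genes, with a panel for each compound. The median of the endosomal receptors is -0.53 with 15d-PGJ2-PC and -1.24 with 15d-PGJ2, beside 0.07 and 0.11 for adaptors and kinases, whose points lie on both sides of 0.

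Most markers of the macrophages themselves were also lower with the compounds than in control. Of 10 macrophage markers, 7 fell with 15d-PGJ2-PC (median -0.21) and 10 fell with 15d-PGJ2 (-0.58), and 10 were higher with 15d-PGJ2-PC than with 15d-PGJ2 (0.33). Over all tested genes, 14.1% fell and 13.8% rose with 15d-PGJ2-PC, and 25.0% fell and 22.2% rose with 15d-PGJ2. Between the compounds, 12.3% were higher with 15d-PGJ2-PC. These shares also serve for the neutrophil markers below. Dendritic cells and B cells also express Tlr7 and Tlr9. The B cell list summed to 24.6 to 29.1 FPKM with 15d-PGJ2-PC, 14.0 to 17.7 FPKM with 15d-PGJ2 and 39.0 to 46.8 FPKM in control, nearly all of it Cd79b, while Ms4a1 and Pax5 averaged at most 0.06 FPKM in any group. Dendritic markers (7 of 7 listed) summed to 26.4 to 29.3, 22.8 to 25.4 and 33.6 to 34.7 FPKM in these groups, most of it Batf3 (24.6 FPKM with 15d-PGJ2-PC, 20.5 FPKM with 15d-PGJ2 and 31.0 FPKM in control). Itgax averaged 2.003, 2.10 and 1.89 FPKM and Flt3 0.44, 0.297 and 0.05 FPKM in these groups, and the plasmacytoid marker Siglech at most 0.03 FPKM. Neutrophil markers summed to 19.9 to 26.2 FPKM with 15d-PGJ2-PC, 13.5 to 16.6 FPKM with 15d-PGJ2 and 27.5 to 30.9 FPKM in control, most of it S100a8 and S100a9. Mpo went the other way, with 1.99 FPKM with 15d-PGJ2-PC, 1.69 FPKM with 15d-PGJ2 and 0.0933 FPKM in control (adjusted p = 7.91e-05 and 7.74e-05), so that 1 of the 4 tested neutrophil markers rose with each compound, while 1 fell with 15d-PGJ2-PC and 3 fell with 15d-PGJ2. T cell markers (3 of 5 listed) summed to 3.02 to 3.47, 2.05 to 2.91 and 2.38 to 3.25 FPKM. The part of these cells, and of the skin, stromal and erythroid transcripts, in the differences of the receptors was not tested.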

How the data were processed

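Gene expression was measured by RNA-seq (Illumina TruSeq libraries from Trizol-extracted RNA, per the labels' protocols) in 9 libraries. The authors deposited 1 table of FPKM values, per the file headers, for 18049 genes. The aligner BWA and genome build mm10 come from the submitters' processing notes, while no version and no read counter is given in the sources used here. All sample columns were used as deposited, without further scaling.

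Values were moved to log2(FPKM + 1), so fold changes of low genes are understated. The filter of 1 FPKM in 3 or more libraries left 11309 genes, tested with limma 3.58.1 in R 4.3.3, using a mean trend, a single residual variance for each gene from the 9 libraries, with no covariate. Tests were two-sided, with Benjamini-Hochberg adjustment in each of 3 comparisons, at a threshold of 0.05. Intervals are 95% intervals of the moderated test. The procedure was tested on simulated data with independent noise in each library. Such data do not bear on whether the libraries here are only technical replicates. No count model was applied, since FPKM values are not counts. Depth was read from steps between low FPKM values with GENCODE M21 transcript lengths matched through RefSeq accessions. At this depth, 70.4% to 73.0% of low values lay within 0.15 of a whole read.

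All 10 receptors are named whatever their result. Pathway genes are named from the members of each list that passed, at most 4 per list and comparison by smallest p, plus 6 regardless of result, and the text takes a subset of them. The members and lists were chosen with earlier results of these data known. Alternatives were another pseudocount, filter or scaling, no trend, fitting 6 libraries, a replicate block and leaving out each library.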

Additional observations from a re-analysis of the deposited data

How the results depend on the processing

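Of the differences of the 9 tested receptors, recomputed under all alternatives, 442 kept their direction and their side of the threshold, 9 lost the call, 2 gained it and 3 changed sign. The difference of Tlr4 between 15d-PGJ2 and control, -0.01, was 0.0346 with upper-quartile scaling and ran from -0.0409 to 0.0506 over left-out libraries, never passing. That of Tlr6 was -0.20 with upper-quartile scaling (adjusted p = 0.0501) and -0.27 to -0.21 over left-out libraries. Between 15d-PGJ2-PC and control, Tlr1 was -0.16 with a filter of 5 FPKM (adjusted p = 0.0454) and -0.19 to -0.10 over left-out libraries. Between the compounds, Tlr2 was 0.21 after quantile normalization (adjusted p = 0.0576) and 0.21 to 0.29 over left-out libraries. The cause was not tested. Ly96 in 15d-PGJ2 against control changed sign without 15d-PGJ2 replicate 1 or control replicate 3 and ran from -0.136 to 0.0569 over left-out libraries. The number of receptors called stayed at 7 to 8 in 15d-PGJ2 against control, 6 to 7 in 15d-PGJ2-PC against control and 6 to 7 between the compounds. The number tested was not always 9, as Tlr3 has no value with a filter of 5 FPKM, and Tlr5 was tested only without a filter. The 7 called in 15d-PGJ2 against control with that filter thus reflect a receptor not tested. 

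Libraries with the same replicate number shared no strong deviation from their group means, with correlations of -0.043 to 0.052. Whether they were paired by culture, animal or day cannot be told from these values, and the labels do not say. A fit with the replicate number as a block called 3041 genes between 15d-PGJ2-PC and control, 5272 between 15d-PGJ2 and control and 2215 between the compounds, beside 3147, 5338 and 2335 without it, and changed the call of no tested receptor. Depth limits Tlr5, with 0 to 3 reads per library, and Tlr3, with 30 to 37 reads per library with 15d-PGJ2. The 3 libraries per group limit the precision of every value.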
